A study of Mus musculus and Meriones unguiculatus with 4 samples.

Results

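The genes described here carry the Eda receptor signal to the transcription factor NF-kB: Eda, Edar, Edaradd, Traf6, Tnfrsf19, Nfkbia, Nfkb1, Rela, Ikbkg and Chuk. They were taken by gene name, ignoring case, as a list of 10. All 10 were found among the 27632 loci of the mouse table and 7 among the 25745 genes of the gerbil table, and the same 7 were measured in both. Edar, Nfkbia and Chuk have no row under those names in the gerbil table and are not compared between species. The RNA came from the enamel knot region of developing teeth. Mouse germs were wild type and taken at embryonic day 13, gerbil germs (Meriones unguiculatus) were wild type too and taken at embryonic day 15, and each species gave 2 libraries. Per the labels' protocols, the region was cut by laser from frozen sections of fixed germs. The labels call the material epithelial cells and do not say how many animals went into a library.

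Ectodysplasin, the product of Eda, is a ligand of the tumour necrosis factor family. It binds the receptor Edar, which recruits the adaptor Edaradd and, through it, Traf proteins. These activate the IkB kinase complex, built from the kinases encoded by Chuk and Ikbkb and the scaffold encoded by Ikbkg. The kinase marks the inhibitor encoded by Nfkbia for breakdown, and dimers of Rela and the Nfkb1 product then enter the nucleus. In teeth, Edar is known as a receptor of the enamel knot and Eda as a ligand made in neighbouring epithelium, and loss of the pathway flattens molar cusps. Tnfrsf19 encodes a related receptor, also named Troy, that is found in dental and hair follicle epithelium.

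NF-kB binds a sequence of 10 bases, the kappa-B consensus, and Nfkbia is a standard example of a gene that it switches on. The mouse promoters of Nfkbia and of the NF-kB subunit gene Nfkb2 and the cytokine gene Ltb are shown because Nfkb2 and Ltb were over 2-fold higher in one mouse library, as described further on, and Nfkbia is the 1 member with a match to the consensus. Each sequence gives the 250 bases before a start of the gene, 5′ to 3′ along the gene, from RefSeq on GRCm38.p6. Capitals mark matches to the consensus on either strand. Overlapping matches run together. Nfkb2 has further starts, with windows at 46305445-46305694 and 46305680-46305929. Those windows held 1 match each and are not shown, while the one shown held 4, counting both strands.
Nfkbia, chr12:55492648-55492897, minus strand: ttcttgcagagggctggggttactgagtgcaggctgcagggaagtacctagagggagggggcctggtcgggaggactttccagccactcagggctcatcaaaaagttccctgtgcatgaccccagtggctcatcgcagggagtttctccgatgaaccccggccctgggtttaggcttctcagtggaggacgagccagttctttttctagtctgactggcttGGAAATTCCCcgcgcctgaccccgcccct
Nfkb2, chr19:46304487-46304736, plus strand: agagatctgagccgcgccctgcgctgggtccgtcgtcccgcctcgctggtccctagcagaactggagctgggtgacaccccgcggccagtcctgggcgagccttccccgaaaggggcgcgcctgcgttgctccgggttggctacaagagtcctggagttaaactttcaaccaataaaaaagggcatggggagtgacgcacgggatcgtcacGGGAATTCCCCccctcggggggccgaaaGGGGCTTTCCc
Ltb, chr17:35194257-35194506, plus strand: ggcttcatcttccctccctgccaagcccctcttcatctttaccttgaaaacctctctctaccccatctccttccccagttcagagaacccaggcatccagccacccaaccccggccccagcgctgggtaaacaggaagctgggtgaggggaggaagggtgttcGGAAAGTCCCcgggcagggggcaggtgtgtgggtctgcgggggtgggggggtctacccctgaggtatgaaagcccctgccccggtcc
The Nfkbia match reads GGGAATTTCC on the strand opposite to the gene and begins 29 bases before its start. The Ltb match reads GGGACTTTCC on the opposite strand, 87 bases before the start. In the same window, 1281 of all 32851 promoters (3.90%) held a match. Of the members, 9 had a promoter in the RefSeq table and only Nfkbia held a match. A match describes letters and not a bound site.

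Column names distinguish the mouse libraries as PEK and SEK, and the gerbil ones as E21 and E23. No label says what these names mean, and E21 and E23 differ from the labelled day. Should they mark a stage or a region, the pair within a species would not be replicates, and each SE below would hold that difference as well. Mouse values are FPKM, fragments scaled by transcript length and library total, and gerbil values are TPM, transcripts scaled to a fixed library total. Mouse depth is unknown and gerbil depth was not analysed here, so no detection limit is given. None of 6 epithelial markers was at 0 in any library. Krt5 was at 714 and 1161 FPKM in mouse and 801 and 540 TPM in gerbil. None of 6 knot markers was at 0, with Shh at 416 and 297 FPKM and at 128 and 140 TPM. The mesenchyme and endothelial markers found were not at 0 either, so values above 0 do not establish epithelial or knot identity. Other knot markers differed between the species. On the length-corrected scale described below, gerbil minus mouse, 3 of the 6 were called higher in mouse, beside 15.0% of all genes. They were Cdkn1a (-5.03 ± 0.42), Wnt10a (-3.56 ± 0.20) and Fgf4 (-2.82 ± 0.73). Mouse libraries lay above gerbil libraries without overlap for 5 of the 6, beside 37.3% of all genes, and the median was -2.57. Summed markers of endothelium, blood and immune cells, and skeletal muscle were at 1.88, 10.04 and 39.6 FPKM in PEK, at 5.63, 22.7 and 176 in SEK, at 0.17, 0.93 and 0.41 TPM in E21, and at 11.5, 4.40 and 1.12 in E23. These sums cover the markers found in each table, which for blood and immune cells were 7 in mouse and 5 in gerbil. They are not comparable between species. On the scaled levels described below, the blood and immune markers in both tables summed to 2.60 in PEK, 12.6 in SEK, 7.01 in E21 and 37.4 in E23. Mesenchyme markers summed to 270 and 287 FPKM and to 180 and 272 TPM. In bulk tissue, fewer cells of a type and less RNA per cell cannot be told apart.

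Eda, the ligand, had the lowest value of the listed members in all 4 libraries. It was at 0.385 and 0.335 FPKM in PEK and SEK and at 0.12 and 0.57 TPM in E21 and E23. The gerbil gene model of Eda spans 8456 bases, against 425261 bases for the mouse locus on chromosome X (GRCm38 positions 99975606 to 100400866). Its ratio of 0.0199 lies at the 0.54 percentile of all 13321 genes matched between the tables, whose median ratio is 0.882. A gerbil value for Eda therefore covers a short model of the gene. Its low place among the gerbil members is that of this short model, and the effect of the model on the value was not tested.

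Edar, the receptor, differed most between the mouse libraries among the members. It was at 24.6 FPKM in PEK and at 7.77 in SEK, a ratio of 3.16. The mouse locus lies on chromosome 10, positions 58600780 to 58675654, and matches the annotated gene of 12 exon blocks to within a few bases at one end. The gerbil table holds 2 rows without a symbol whose description names EDAR, found after the values were seen. The first was at 28.5 TPM in E21 and 10.8 in E23 and the second at 1.33 and 0.59, so that their sum was 2.62 times higher in E21. Both models span 25303 bases, on opposite strands of one scaffold, and the sources used here do not give how reads were divided between them. These rows are not members and are not compared with mouse Edar.

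Tnfrsf19 was more abundant than Edar, the other receptor of the list, in both mouse libraries, at 167 and 79.0 FPKM in PEK and SEK. In gerbil it was the only listed receptor with a row under its name, at 41.0 and 29.7 TPM in E21 and E23. Within a library, the Tnfrsf19 to Edar ratio was 6.80 in PEK and 10.2 in SEK.

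Edaradd, the adaptor that joins Edar to Traf proteins, was at 9.26 and 10.1 FPKM in mouse and 22.4 and 14.1 TPM in gerbil. The mouse row needs care. Its assembled locus on chromosome 13 (12439276 to 12520469) runs beyond the annotated gene (12472632 to 12520438) and contains exons of Lgals8, a galectin gene on the same strand that has no row of its own in the mouse table. In the gerbil table Lgals8 is listed apart, at 2.12 and 1.75 TPM. A mouse Edaradd value can therefore hold Lgals8 fragments, and this share was not tested.

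**Figure D1:**
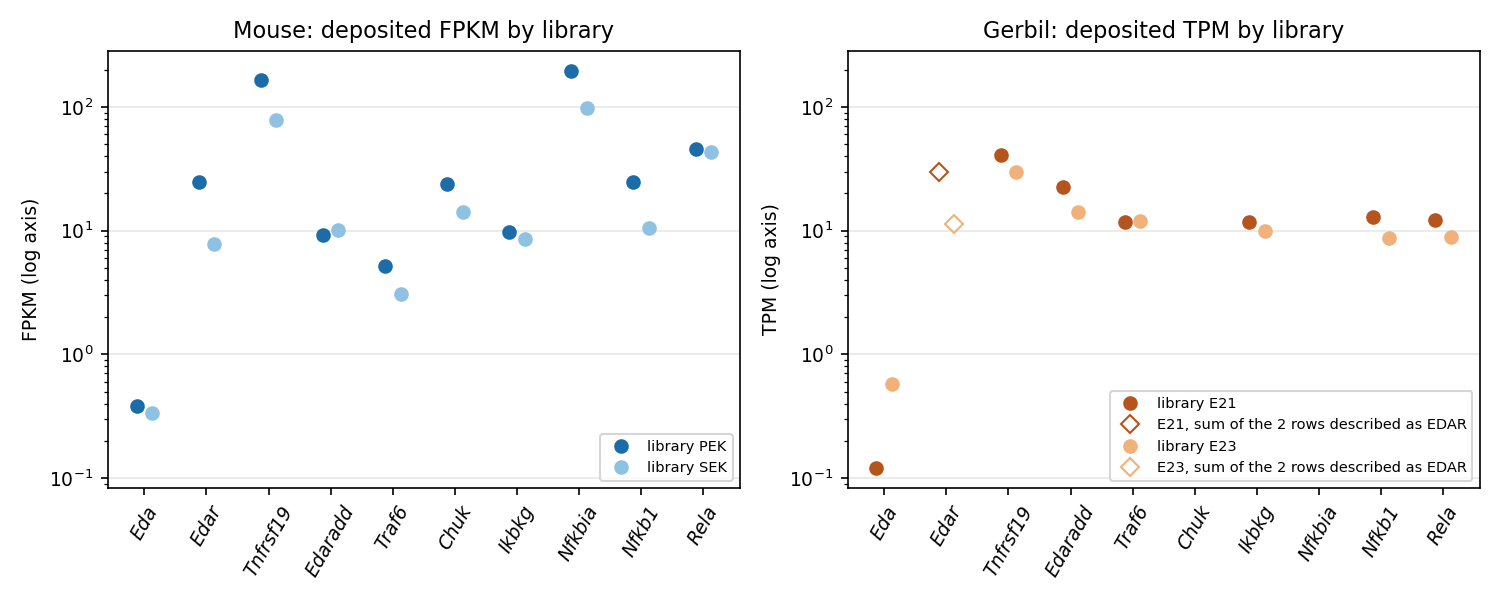
Deposited values of the 10 members by library on a log axis, mouse FPKM at left and gerbil TPM at right; open diamonds are the sum of the 2 gerbil rows described as EDAR. Eda is the lowest member in every library, from 0.12 to 0.57, and Tnfrsf19 the highest of the members present in both tables, from 29.7 to 167.

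Traf6, the ubiquitin ligase that passes the signal from adaptor to kinase, was at 5.14 and 3.09 FPKM in mouse and 11.7 and 12.0 TPM in gerbil. Its mouse locus, chromosome 2 from 101678429 to 101701669, has the ends of the annotated gene of 8 exon blocks. Traf6 was the lowest mouse member after Eda, and in gerbil it stood beside Rela, Nfkb1 and Ikbkg.

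The kinase genes were at moderate levels. Chuk was at 23.8 and 14.1 FPKM in PEK and SEK. Ikbkg was at 9.79 and 8.49 FPKM and at 11.8 and 10.02 TPM. The Ikbkg locus on chromosome X contains exons of G6pdx, which encodes a sugar phosphate dehydrogenase, on the other strand. G6pdx has its own mouse row, at 21.4 and 28.4 FPKM in PEK and SEK, and no gerbil row under that name. The sources used here do not say whether counting used strand, so reads of these genes cannot be told apart with certainty. Ikbkb, the partner kinase of Chuk, was at 29.5 and 27.5 FPKM and 9.53 and 6.91 TPM. The Ikbkb to Ikbkg ratio was 3.01 and 3.24 in mouse and 0.810 and 0.690 in gerbil, without a correction for length.

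Nfkbia, the inhibitor gene, was the most abundant member in mouse, at 197 FPKM in PEK and 98.6 in SEK. It lies on chromosome 12 at positions 55489411 to 55492647. Rela was at 45.4 and 43.6 FPKM and at 12.3 and 8.87 TPM, and Nfkb1 at 24.9 and 10.5 FPKM and 12.9 and 8.75 TPM. The Nfkbia to Rela ratio within a mouse library was 4.34 in PEK and 2.26 in SEK. The Rela to Nfkb1 ratio was 1.82 and 4.13 in mouse and 0.953 and 1.01 in gerbil. On these deposited values, without a correction for length, the subunit genes were closer to equal in the gerbil libraries. The merged exons of mouse Rela and Nfkb1 total 2716 and 4124 bases, and the part of length in the ratio was not tested.

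For comparison across species, the values of the 13321 matched genes were scaled to total 1000000 in every library, giving levels. Since the deposited tables were normalized apart from each other, differences between them were not tested for significance. With 2 libraries a side, the smallest two-sided p of an exact permutation test is 0.33. Differences are on the log2(level + 1) scale, gerbil minus mouse, and each standard error rests on 2 libraries per species. Transcript length was taken as the merged exons of the mouse gene. The gerbil to mouse difference of all genes rose with this length. Its median was -1.77 in the shortest of 10 length groups and 1.43 in the longest. The dependence on length was subtracted library by library. Species, stage and the authors' processing of each table cannot be told apart. After that correction, a gene counts as called if each library of one species exceeded each library of the other by 2-fold or more. Of 10328 genes whose mean level reached 1, 13.5% were called higher in gerbil and 15.0% higher in mouse.

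Traf6 was the 1 member called, higher in gerbil. Its level was 11.7 in PEK and 6.32 in SEK and 88.2 in E21 and 102 in E23. Both gerbil libraries lay above both mouse libraries, and the corrected difference was 1.58 ± 0.15 (SE, n = 2 and 2). That value lies at the 89.3 percentile of all genes. Among the 10328 genes, ranked within each library and without a length correction, Traf6 stood at the 30.1 and 26.2 percentiles in mouse and at the 70.6 and 76.5 percentiles in gerbil. The call was made with each library left out in turn, at differences from 1.42 to 1.69. It is 1 of 7 members beside the 13.5% of all genes. The gerbil model of Traf6 spans 11762 bases and the mouse locus 23241, a ratio of 0.506 that lies at the 16.4 percentile of the matched genes. Groups did not overlap after correction for 3 members higher in gerbil (Traf6, Edaradd and Ikbkg), beside 37.1% of all genes, and for 2 higher in mouse (Tnfrsf19 and Rela), beside 37.3%.

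**Figure D2:**
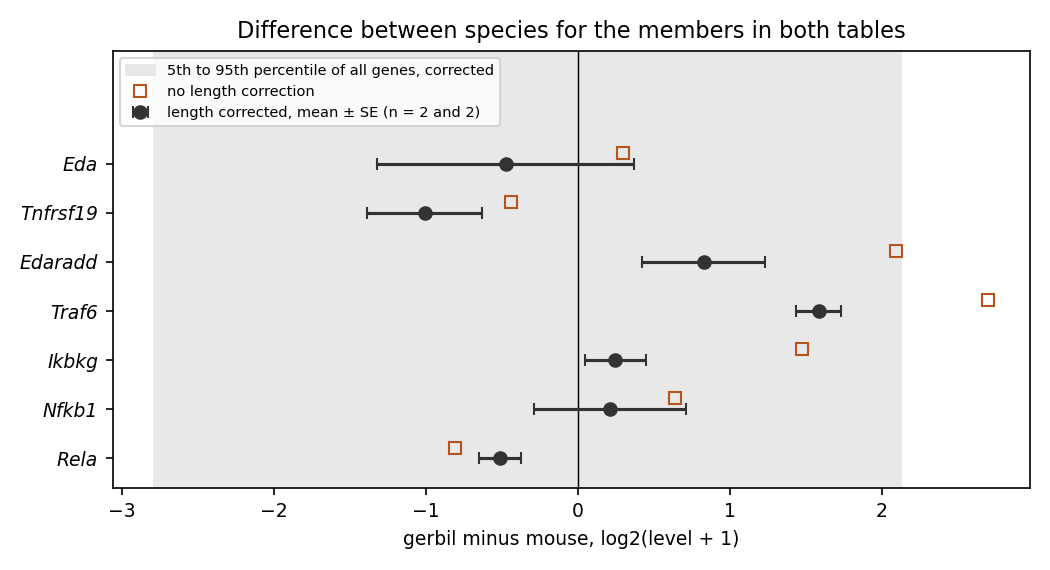
Gerbil minus mouse difference of the 7 members in both tables on the log2(level + 1) scale; filled circles are length corrected with SE bars (n = 2 and 2), open squares lack the correction, and the grey band holds the central 90% of all genes after correction. Traf6 lies at 1.58 and the other members between -1.01 and 0.83, all inside the band.

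The other 6 members met neither criterion. Tnfrsf19 was at levels of 380 and 162 in PEK and SEK and 309 and 252 in E21 and E23, levels that overlap, and the corrected difference was -1.01 ± 0.38. Without SEK it was called higher in mouse (-1.30). Rela was at 103 and 89.2 against 92.7 and 75.4 (-0.51 ± 0.14), and Nfkb1 at 56.7 and 21.6 against 97.3 and 74.4 (0.21 ± 0.50). The Nfkb1 difference was 0.69 without PEK and -0.28 without SEK, so its direction rests on which mouse library is used. Eda was at 0.876 and 0.687 against 0.905 and 4.84 (-0.48 ± 0.84), and the difference was 0.28 without E21.

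Edaradd and Ikbkg depended on the length correction. Edaradd was at levels of 21.1 and 20.8 in mouse and 169 and 120 in gerbil, groups that do not overlap, yet its corrected difference was 0.83 ± 0.41 and its nearest libraries were 0.26 apart. Ikbkg was at 22.3 and 17.4 against 88.7 and 85.2. After correction its nearest libraries were only 0.002 apart, and the corrected difference was 0.24 ± 0.20. Without PEK these differences were 0.49 for Edaradd and 0.03 for Ikbkg. Their merged exons total 6668 and 7331 bases, in length groups where the median over all genes before correction was 1.14 and 1.43. Without the correction Edaradd (2.09), Ikbkg (1.47) and Traf6 (2.698) were called higher in gerbil, 3 of 7 members beside 18.5% of all genes. The median difference of the 7 members was 0.21 with the correction and 0.64 without it, and that of all genes -0.02 and -0.01.

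**Figure D3:**
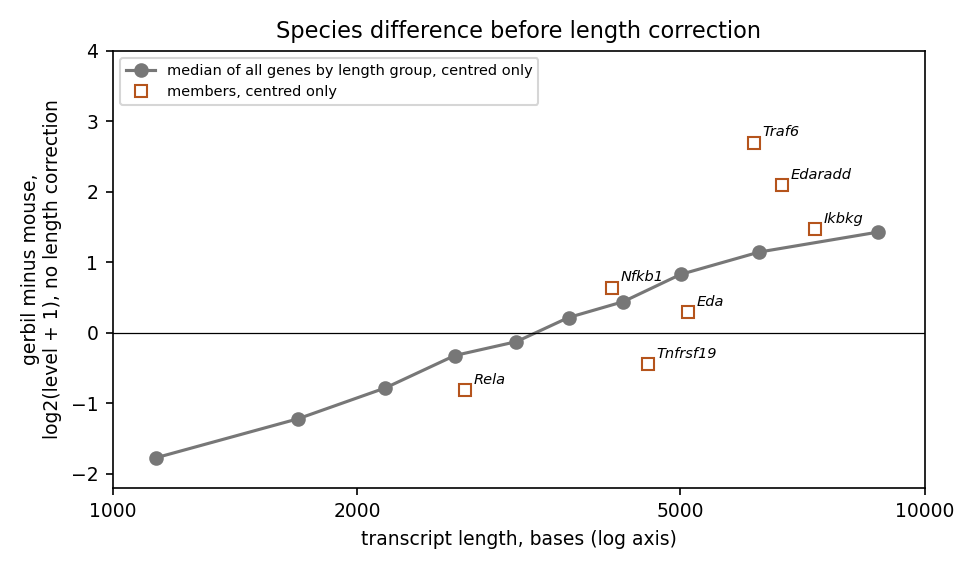
Gerbil minus mouse difference before length correction, on the log2(level + 1) scale, against transcript length in bases on a log axis; the grey line joins the medians of 10 length groups of all genes and squares are the members. Traf6 at 2.698 and Edaradd at 2.09 lie above the line and Tnfrsf19 at -0.44 below it.

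Set in order of mean level, without a correction for length, the 7 members ran differently in each species. In mouse Tnfrsf19 was at 271 ± 154 (SD, n = 2) and Rela at 96.2 ± 9.84. They were followed by Nfkb1 at 39.2 ± 24.8, Edaradd at 20.9 ± 0.199, Ikbkg at 19.8 ± 3.45, Traf6 at 9.01 ± 3.79 and Eda at 0.781 ± 0.134. Edaradd and Ikbkg, and Nfkb1 with either of them, did not differ beyond the spread of the libraries. In gerbil Tnfrsf19 was at 281 ± 40.3 and Edaradd at 144 ± 34.9. Traf6 (94.9 ± 9.50), Ikbkg (86.9 ± 2.48), Nfkb1 (85.8 ± 16.2) and Rela (84.1 ± 12.3) lay within each other's spread, and the short gerbil model of Eda was at 2.87 ± 2.79. Tnfrsf19 stood between the 87.2 and 95.8 percentiles of all genes in the 4 libraries and Eda between the 5.86 and 14.3 percentiles. Edaradd stood at the 42.3 and 49.2 percentiles in mouse and the 87.6 and 80.7 percentiles in gerbil.

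Other receptors, adaptors and kinases of the pathway went both ways. Of 19 such genes, 16 were measured in both species, with a median difference of -0.13. Of the 16, 1 was called higher in gerbil and 3 in mouse, beside 13.5% and 15.0% of all genes. Neither criterion was met by 12. Map3k7 and Tnfaip3 have no row under those names in the gerbil table and Ube2v1 none in the mouse table. Cyld, which removes ubiquitin chains and dampens NF-kB signalling, was higher in gerbil at 50.7 and 47.0 against 6.59 and 3.38 (1.11 ± 0.03). Tnfrsf1a, a receptor for tumour necrosis factor, was higher in mouse at 99.2 and 77.1 against 26.5 and 27.7 (-1.55 ± 0.24). The adaptor gene Traf5 was higher in mouse as well (-1.49 ± 0.36). So was Traf1, itself an NF-kB target, at 8.87 and 1.57 against 0.980 and 0.255 (-2.66 ± 0.87). Without PEK the mean level of Traf1 fell under the minimum, so its call rests on that library. Without the length correction the counts were 5 higher in gerbil and 4 in mouse, beside 18.5% and 19.5% of all genes. Without PEK they were 5 and 3 of 15, beside 19.2% and 20.6%. Without E21 they were 1 and 5, beside 17.5% and 19.1%.

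Of 7 other NF-kB and IkB genes, all measured, Nfkbib was the 1 called, beside 15.0% of all genes called higher in mouse. It encodes the inhibitor IkB-beta and was at levels of 127 and 136 in mouse and 22.3 and 21.6 in gerbil, a corrected difference of -2.38 ± 0.01. The libraries of each species were close to each other and the species far apart. The median of the 7 was -0.17, and 0.69 without PEK. Without SEK 2 of the 7 were called higher in mouse, beside 19.8% of all genes, and the median was -1.10.

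Genes that respond to Eda or NF-kB in ectodermal placodes, as known from textbooks, included several that were far higher in mouse. Of 15 on that list, 13 were in both tables and 12 passed the minimum level, of which 5 were called higher in mouse, 1 was called higher in gerbil and 6 met neither criterion. Their median difference was -1.58. It was -0.83 without PEK and -2.40 without SEK, where 7 were called higher in mouse. With a mean level of at least 10 in each species, 2 of 8 were called higher in mouse and 1 in gerbil, with a median of -0.52. The shares of all genes there were 11.7% and 10.3%. With no filter on low values 4 of 13 were called higher in mouse and 0 in gerbil (-0.98), beside 13.5% and 12.1%. On the values as deposited 8 of 12 were called higher in mouse (-2.66), beside 37.0% of all genes, whose median was -0.94. The gene of connective tissue growth factor is named Ctgf in the mouse table and Ccn2 in the gerbil table, and was not matched. Ltb, which encodes lymphotoxin beta, was at 1021 and 70.5 in PEK and SEK and at 9.27 and 0.680 in E21 and E23 (-4.89 ± 2.47). Madcam1, an adhesion molecule gene, was at 326 and 14.2 against 1.28 and 2.29 (-3.80 ± 2.43). Fgf20 (-4.96 ± 2.46) and Wnt10a (-3.56 ± 0.20) were the other pair named by the rule. Foxi3, a transcription factor gene of placodes, was higher in gerbil at 295 and 168 against 132 and 78.1 (2.17 ± 0.70), a call that ended without the length correction (0.51) and with no filter on low values (1.66). Of these genes Ltb, Madcam1 and Fgf20 had standard errors above 2, with PEK far above SEK. Without PEK their differences were -2.81, -1.44 and -2.98. Of 9 stress and handling genes 6 were called higher in mouse, beside 15.0% of all genes. The summed levels of the 10 in both tables were 832 and 642 in mouse and 144 and 172 in gerbil. The 6 knot markers, which share Shh, Wnt10a and Wnt10b with the placode response list, had a lower median still (-2.57), and their summed levels were 3598 and 2359 in mouse and 1217 and 1345 in gerbil. The part of the stress and knot genes in the difference was not tested.

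The mouse libraries PEK and SEK were compared with each other next. With 1 library on each side there is no replicate check, and no test was made. On the log2(FPKM + 1) scale PEK exceeded SEK by a median of 0.21 over all 15852 mouse loci at a mean of at least 1, and 17.1% of them were at least 2-fold higher in PEK, with 7.04% at least 2-fold higher in SEK. Of the 9 members above that minimum, 3 were 2-fold higher in PEK and 0 in SEK. They were Edar (1.54), Nfkb1 (1.17) and Tnfrsf19 (1.07), and Nfkbia lay just under the line at 0.99. Chuk (0.72) and Traf6 (0.59) leaned the same way, while Rela (0.06), Ikbkg (0.19) and Edaradd (-0.12) were nearly level. After each library was divided by its median, Edar (1.28) was the 1 member past 2-fold, beside 11.6% of all loci, and Nfkb1 (0.90) and Tnfrsf19 (0.78) were not.

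The NF-kB genes outside the list of members also differed between the mouse libraries. Among the other NF-kB and IkB genes, 3 of 6 above the minimum were 2-fold higher in PEK, beside 17.1% of all loci. Relb was at 37.7 and 8.13 FPKM, Nfkb2 at 22.6 and 5.46, and Bcl3, which encodes a nuclear IkB protein, at 7.83 and 2.09. Each encodes a product of the NF-kB family that is known to be induced by NF-kB itself, and each was also past 2-fold after median scaling. Nfkbib went the other way at 56.1 and 66.1 FPKM.

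Among the other receptors, adaptors and kinases, 4 of 16 were 2-fold higher in PEK, beside 17.1% of all loci. Tnfaip3, which encodes the feedback inhibitor A20, was at 6.41 and 1.17 FPKM, and its partner gene Tnip1 at 35.7 and 12.1. Traf1 was at 3.90 and 0.767 and Traf3 at 9.90 and 3.22. Traf2 (18.5 and 35.3) and the ubiquitin-conjugating enzyme gene Ube2n (49.1 and 76.4) were higher in SEK by less than 2-fold. After median scaling the counts were 4 in PEK and 1 in SEK, beside 11.6% and 12.4% of all loci. The 1 in SEK was Traf2 (-1.17).

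Of the placode response genes, 9 of 12 above the minimum were 2-fold higher in PEK, beside 17.1% of all loci. In SEK 0 were 2-fold higher, beside 7.04%, and the median was 1.43. After median scaling 8 of 12 were 2-fold higher in PEK, beside 11.6%. Madcam1 was at 143 and 6.95 FPKM, a ratio of 20.6. Ltb was at 449 and 34.4 and Fgf20 at 199.5 and 15.5. Fst, an activin antagonist gene, was at 205 and 28.9, and Dkk4, a Wnt antagonist gene, at 35.9 and 7.82. Icam1 (32.1 and 11.1), Birc3 (7.91 and 2.38), Wnt10b (74.2 and 27.9) and Ctgf (58.5 and 27.6) made up the 9. Shh (416 and 297), Wnt10a (327 and 302) and Foxi3 (58.1 and 38.1) were not past 2-fold. These named genes were chosen after their values were seen. The 6 knot markers share Shh, Wnt10a and Wnt10b with this list. Of the 6, 3 were 2-fold higher in PEK, beside 17.1% of all loci. They were Wnt10b as above, Fgf4 at 68.0 and 26.2 FPKM and Slit1 at 8.93 and 0.959. Cdkn1a (688 and 498) was not past 2-fold, nor were Shh and Wnt10a, as given above. Of 6 mesenchyme markers Prrx1 (12.5 and 1.98) was 2-fold higher in PEK, Twist1 was at 80.5 and 41.3, and Col1a1 (21.2 and 99.5) and Col3a1 (18.6 and 55.8) were 2-fold higher in SEK. Markers of endothelium, blood and immune cells and muscle had lower sums in PEK than in SEK, as given above, and stress genes summed to 413 FPKM in PEK and 340 in SEK. Of 12 stress genes above the minimum, 3 were 2-fold higher in PEK (Ier3, Egr1 and Jun), beside 17.1% of all loci. After median scaling 1 was, beside 11.6%. Their part in the result was not tested.

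**Figure D4:**
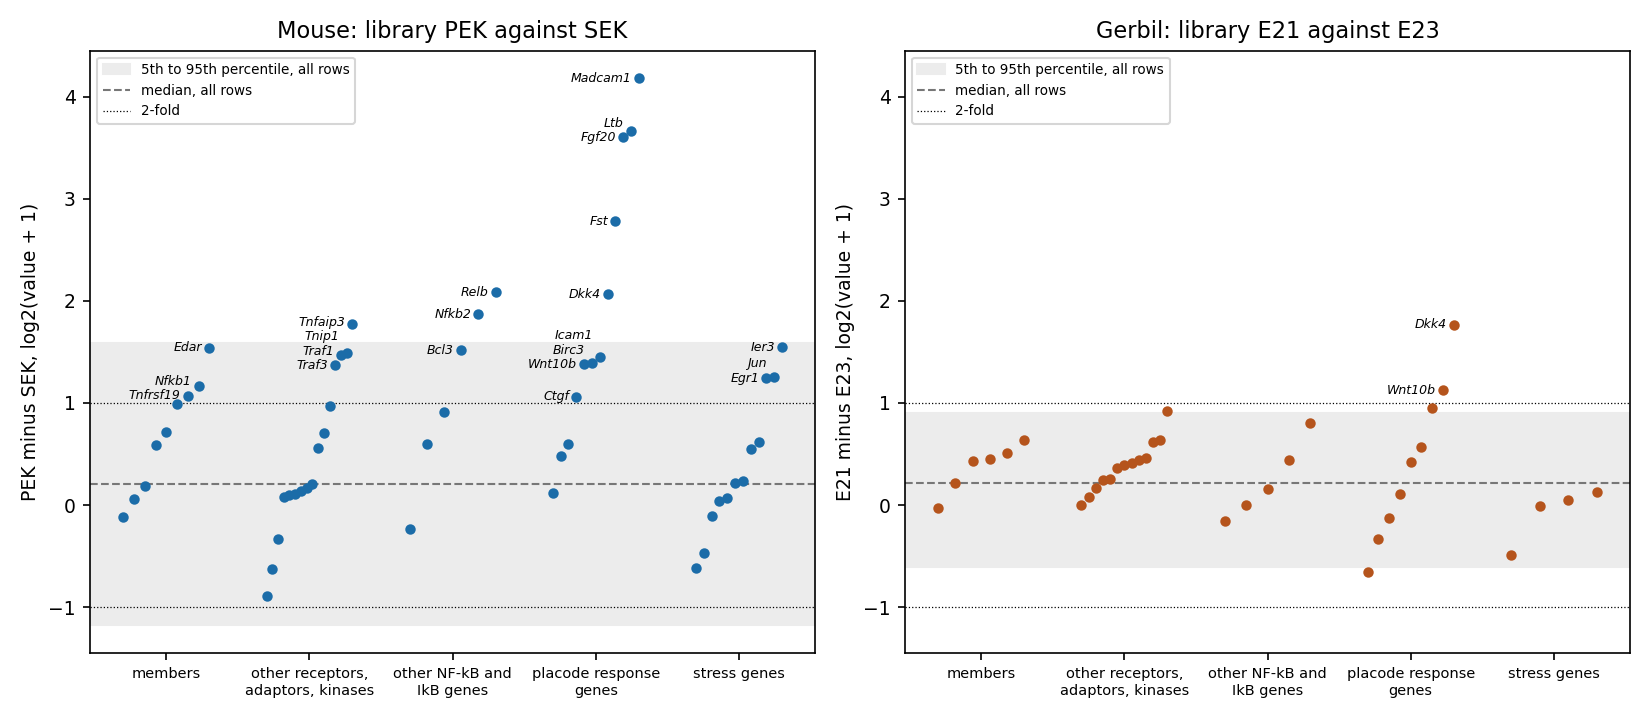
Difference between the 2 libraries of each species on the log2(value + 1) scale, for the members and 4 further gene lists at a mean of at least 1; the grey band holds the central 90% of all rows, the dashed line their median and dotted lines 2-fold. In mouse, 9 of 12 placode response genes lie above the upper 2-fold line, up to Madcam1 at 4.18, and in gerbil 2 of 9 do. Of all rows, 17.1% in mouse and 3.72% in gerbil do.

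Fewer genes differed by 2-fold between the gerbil libraries. Over 12032 gerbil genes at a mean of at least 1 the median of E21 minus E23 was 0.21, and 3.72% were 2-fold higher in E21 and 2.46% in E23. Of the 6 members above that minimum, 0 were 2-fold apart. Edaradd (0.64), Nfkb1 (0.51), Tnfrsf19 (0.45), Rela (0.43) and Ikbkg (0.21) were the higher ones in E21, and Traf6 was at -0.03. After median scaling 0 of 6 were 2-fold apart, beside 2.24% of all genes higher in E21 and 3.45% higher in E23. The first row described as EDAR differed by 1.32. Among the placode response genes 2 of 9 were 2-fold higher in E21, beside 3.72% of all genes. They were Dkk4 at 5.97 and 1.05 TPM and Wnt10b at 12.8 and 5.34. After median scaling Dkk4 (1.58) was the 1 past 2-fold, beside 2.24%. Endothelial markers summed to 0.17 TPM in E21 and 11.5 in E23, and their part in these values was not tested.

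The kappa-B consensus was counted in the same 250-base window over the lists. It was found in 3 of 5 other NF-kB and IkB genes with a promoter in the table, in 4 of 7 placode response genes, in 5 of 17 other receptors, adaptors and kinases, and in 3 of 11 stress genes, beside 4.46% of all 27025 genes. Several of these genes are on the lists because NF-kB is known to switch them on. Matches were found both in genes 2-fold higher in PEK and in others that were not, such as Cyld, Map3k7 and Nfkbie. Tnfaip3, Wnt10b and Ier3 were 2-fold higher in PEK and held matches. The members Edar and Tnfrsf19 were 2-fold higher in PEK and held none. Whether a match goes with the difference between the mouse libraries was not tested. Among the genes 2-fold higher in PEK, Madcam1 held GGGACTTTCC and GGGGCTTTCC, Tnip1 held GGGAATTCCC and GGGGAATTCC, which overlap, and Traf3 held GGGGATTTCC.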

How the data were processed

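Tooth germ RNA was measured in 4 libraries, 2 of mouse and 2 of gerbil. Tools listed by the submitters' processing notes are cutadapt 2.8, STAR 2.7.1a and RSEM 1.3.1, with the builds GRCm38 and mm10 and no role for any. The build behind the gerbil table was not named in the sources used. Per the file headers, the authors deposited FPKM per assembled mouse locus and TPM per gerbil gene. Another 4 per-sample columns of the gerbil table were not used here. A column's name gives its species and no replicate number. Nothing says that the libraries of a species came from separate animals.

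Genes were matched by symbols found once in each table, leaving out LOC, Gm and Rik names. Levels, log2 values with a pseudocount of 1, the minimum mean level of 1 and the length correction (median deviation from the gene's mean in 40 length bins, interpolated and subtracted per library) were computed with Python 3.11.15, numpy 2.4.6 and pandas 2.3.3. Lengths were merged exons from GENCODE M21 basic (GRCm38), and 99.9% of mouse loci with an ID there overlapped their gene. The procedure was tested on simulated data. The alternatives were another pseudocount, filter, fold or scaling and leaving out each library. The members and lists were chosen with earlier results of these data known. The rule for named genes takes all members and, from each other list, up to 4 called genes per direction by the gap between the nearest libraries. The fixed design allowed for read counts in gerbil, which were not used.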

Additional observations from a re-analysis of the deposited data

How the results depend on the processing

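The number of members called higher in gerbil was 1 and higher in mouse 0, beside 13.5% and 15.0% of all genes. Without length correction 3 were higher in gerbil, beside 18.5%. With neither centring nor length correction 3 were as well, beside 29.4%. That alternative was chosen after seeing the data, and under it the median difference of all genes was 0.61. With a mean level of at least 10 in each species 0 were higher in gerbil, since that minimum drops Traf6 for its mouse level of 9.01. On the values as deposited 1 member was higher in mouse (Rela, -1.99), beside 37.0% of all genes, whose median was -0.94. Leaving out each library gave 1 to 1 higher in gerbil and 0 to 1 in mouse, beside 16.6% to 19.2% and 18.8% to 20.6% of all genes. Members 2-fold higher in PEK than in SEK went from 3 to 1 after median scaling, and the share of all loci from 17.1% to 11.6%. The Foxi3 difference turned to -0.74 on the values as deposited, and the Cyld (1.14) and Traf1 (-1.45) calls ended there. Traf1 also ended with neither centring nor length correction (-1.68). Traf6 was called under every scaling, filter, fold and left-out library that kept it. No paired analysis was possible because the columns carry no replicate number. Rescaling gerbil read counts by library total was not run. Unknown depth limits low genes such as Eda, and 2 libraries per species limit every error.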

Other observations

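Tnfrsf19 was compared with the wider receptor family after its values were seen. Among 28 tumour necrosis factor receptor genes named in the mouse table it was the highest in both libraries, at 167 and 79.0 FPKM, followed by Tnfrsf1a at 43.6 in PEK and Tnfrsf12a at 56.9 in SEK. Among 21 such genes named in the gerbil table it was again the highest in both, at 41.0 and 29.7 TPM, followed by the neurotrophin receptor gene Ngfr at 9.84 in E21 and the lymphotoxin beta receptor gene Ltbr at 6.98 in E23. The rows described as EDAR carry no symbol and are not among the 21. Ltbr, whose product binds the lymphotoxin that Ltb contributes to, was at 3.31 and 12.1 FPKM in PEK and SEK, while Ltb was at 449 and 34.4. Eda2r, which encodes the receptor for another splice form of ectodysplasin, was at 1.37 and 0.599 FPKM and at 2.90 and 1.55 TPM.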
